A study of Mus musculus with 35 samples.

Results

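The genes described here are 10 that encode fibronectin and matricellular proteins, namely Fn1 (fibronectin), Tnc (tenascin C), Fbln2 and Fbln5 (fibulins), Thbs1 and Thbs2 (thrombospondins), Sparc, Postn (periostin), Spp1 (osteopontin) and Tgfbi. They were taken by symbol, without regard to their values, from a table of 20261 genes, and all 10 symbols were found. RNA was sequenced from wild-type NMuMG cells, an established mouse mammary epithelial line whose strain is labelled E9. One arm received DMSO, the solvent, and the other JNKi, by its name an inhibitor of Jun N-terminal kinase. Each arm was collected at 24 h, 48 h, 72 h, 96 h and 7 d, with 2 replicates per group and 20 libraries in all. Neither the compound behind JNKi nor its dose is given in the sources used here. The protocol given for all samples is treatment with TGF-β at 2 ng/ml, renewed with the medium every 2 d. Both arms thus carry it, and neither gives a level without TGF-β or before 24 h. Whether the 2 replicates of a group were separate cultures is not labelled, and each p-value therefore reflects the spread between libraries alone, which may be technical.

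Fibronectin is a large glycoprotein that cells assemble into fibres through integrins, and it is a classical TGF-β target of epithelial cells that turn mesenchymal. Matricellular proteins are secreted into the matrix without forming its main scaffold, where they change adhesion, growth factor access and matrix assembly. Jun N-terminal kinase phosphorylates Jun, a subunit of the AP-1 transcription factor, and is also activated downstream of TGF-β receptors.

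Over the whole experiment the libraries held 9.5 to 48.6 M reads, with the shallowest in the JNKi 7 d group. Replicates differed by 8.79 to 29.16 times the variance of counting alone (chi-square per degree of freedom). Keratin markers fitted the epithelial label: Krt8 lay at 175730 and 191377 normalized reads (the authors' unit, reads scaled between libraries) in DMSO at 24 h. There Krt18 lay at 121555 and 125190 and Cdh1, E-cadherin, at 11689 and 10599. Other markers of the epithelial list were near absent in these libraries, with Epcam and Cldn7 at 0 in both and Cldn3 at 1.4 in each. Krt8 and Krt18 made up most of the sum of that list. The 10 mammary epithelial markers summed to 345196 to 366501 normalized reads in DMSO at 24 h, to 139009 to 176003 at 7 d and to 107423 to 115099 with JNKi at 7 d. The 10 fibroblast markers summed to 753 to 763 in DMSO at 24 h and to 1861 to 1996 in DMSO and 1822 to 2040 with JNKi at 7 d. Among them Thy1, Dcn and Lum were at 0 in both DMSO libraries at 24 h and at no more than 8.3 at 7 d. The 10 macrophage and leukocyte markers summed to 2121 to 2415 in DMSO at 24 h, 1886 to 1963 at 7 d and 2347 to 2493 with JNKi at 7 d, with Emr1 at 0 in these DMSO groups. Cd14 made up most of that sum in DMSO at 24 h and went from a mean of 1640 to 745 at 7 d. The part of these shifts in the results below was not tested, and in bulk RNA fewer cells of a type and less RNA per cell cannot be told apart.

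Of the 10 genes, 6 were abundant in all groups (Fn1, Tnc, Fbln2, Thbs1, Sparc and Spp1) and 4 had few reads (Postn, Thbs2, Fbln5 and Tgfbi). By the GENCODE annotation of GRCm38, Fn1 lies on chromosome 1, Thbs1 on 2, Postn on 3, Tnc on 4, Spp1 on 5, Fbln2 on 6, Sparc on 11, Fbln5 on 12, Tgfbi on 13 and Thbs2 on 17, so none shares a chromosome with another. Postn and Thbs2 entered the test only through their 7 d groups, and Fbln5 and Tgfbi, with no group mean of 10, were not tested. Of the 4 genes that were lower with JNKi at 7 d (below), Tnc, Fbln2 and Sparc have a promoter entry in the RefSeq table of build GRCm38.p6. These are shown so that the sequence before the start of genes that were lower with JNKi at 7 d can be compared. Each runs 5′ to 3′ on the gene's strand from 250 bases before to 50 bases after the annotated start. The Tnc window, at the further downstream of its annotated starts, is chr4:64046887-64047186 on the minus strand. The Fbln2 window is chr6:91212514-91212813 on the plus strand and the Sparc window chr11:55420031-55420330 on the minus strand. Capitals mark exact matches, on either strand, to 5 motifs: TGANTCA for AP-1, with N for any base, TATAAA for the TATA box, CACCTG for an E-box, GGAATG for TEAD and CAGACA for SMAD.
Tnc: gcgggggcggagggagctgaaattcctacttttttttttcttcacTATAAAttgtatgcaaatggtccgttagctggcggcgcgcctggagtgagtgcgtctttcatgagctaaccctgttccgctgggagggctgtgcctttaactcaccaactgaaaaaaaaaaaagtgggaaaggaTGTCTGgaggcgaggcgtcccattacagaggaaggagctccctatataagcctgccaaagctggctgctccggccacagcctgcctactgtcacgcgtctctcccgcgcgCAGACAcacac
Fbln2: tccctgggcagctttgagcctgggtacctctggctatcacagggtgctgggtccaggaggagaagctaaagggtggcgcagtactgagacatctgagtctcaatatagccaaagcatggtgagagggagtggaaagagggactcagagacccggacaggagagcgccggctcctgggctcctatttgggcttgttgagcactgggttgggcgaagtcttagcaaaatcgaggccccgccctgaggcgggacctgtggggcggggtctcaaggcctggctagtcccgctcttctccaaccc
Sparc: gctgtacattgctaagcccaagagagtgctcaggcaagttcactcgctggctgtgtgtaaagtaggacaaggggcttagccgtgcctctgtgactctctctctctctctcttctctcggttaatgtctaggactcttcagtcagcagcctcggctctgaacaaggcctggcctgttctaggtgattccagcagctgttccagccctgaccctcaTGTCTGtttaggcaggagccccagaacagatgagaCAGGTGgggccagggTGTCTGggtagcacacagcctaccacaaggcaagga
Counted from 1 at the 5′ end, the Tnc window holds TATAAA at position 46 and the SMAD letters at positions 180 and 290. The Sparc window holds the SMAD letters at positions 215 and 265 and the E-box letters at position 250, and the Fbln2 window holds none of the 5 motifs. No match overlapped another. Of 32851 promoters of the same length, 21% held CAGACA, 20.2% CACCTG, 14.7% GGAATG, 13.6% TATAAA and 7.81% TGANTCA. The AP-1 letters were in none of the 12 entries found for 8 of the 10 genes. A match is a description of the letters only, and an absent match says only that the letters are not in this window. Fn1 and Thbs1 are named without a sequence.

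Fibronectin was among the most abundant transcripts of the experiment and rose by more to 96 h than the other abundant genes. In DMSO, Fn1 stood at 53114 and 43252 normalized reads at 24 h, then 282031 and 303020 at 48 h, then 374379 and 422435 at 72 h, then 482266 and 425386 at 96 h and 218959 and 171211 at 7 d. With JNKi it stood at 63372 and 45447 at 24 h, then 255637 and 223496 at 48 h, then 283001 and 311222 at 72 h, then 289897 and 289609 at 96 h and 76921 and 86707 at 7 d. Both arms thus rose to 96 h or 72 h and were lower at 7 d. From 48 h on every JNKi library lay below both DMSO libraries of its time, whereas at 24 h the arms overlapped. At its highest, in DMSO at 96 h, Fn1 alone took 1.47 to 1.68% of all reads, against 0.143 to 0.183% at 24 h and 0.292 to 0.338% with JNKi at 7 d.

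From 24 h to 96 h Fn1 rose in DMSO by 3.24 on the log2 scale (SE 0.18, limma adjusted p = 6.264e-10), a ratio of group means of 9.42, and with JNKi by 2.43 (adjusted p = 1.665e-08), a ratio of 5.33. From 96 h to 7 d it fell by 1.23 in DMSO (adjusted p = 9.981e-05) and by 1.83 with JNKi (adjusted p = 2.388e-06). At 7 d Fn1 was still 4.05-fold its 24 h level in DMSO, but with JNKi the rise was 0.61 (adjusted p = 0.008221), which lost its call without the second JNKi library at 24 h (0.37, adjusted p = 0.1552) or the second at 7 d (0.52, adjusted p = 0.07287). Directly compared, Fn1 was 2.38-fold lower with JNKi than with DMSO at 7 d (log2 difference -1.25, 95% interval -1.62 to -0.87, adjusted p = 0.0005582). At 72 h and 96 h the differences of -0.42 (adjusted p = 0.5339) and -0.64 (adjusted p = 0.5095) did not pass the test, although DESeq2 called the 96 h difference (-0.65, adjusted p = 0.008197).

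**Figure D1:**
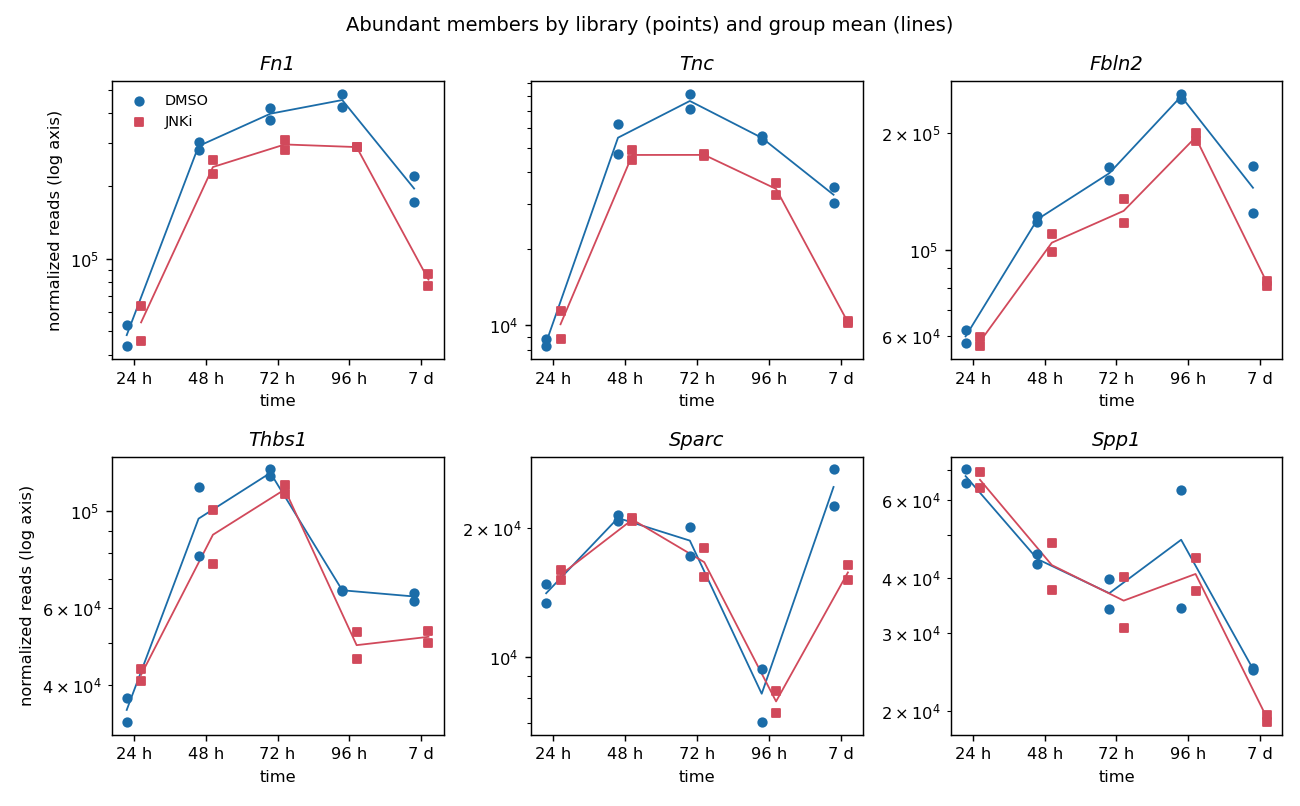
Normalized reads (log axis) of the 6 abundant genes at 5 times, drawn at equal spacing; circles are DMSO and squares JNKi libraries, and lines join the means of 2 replicates. Fn1, Tnc and Fbln2 rise and come down, with JNKi at or below DMSO from 48 h, Sparc dips at 96 h and Spp1 falls from 24 h to 7 d.

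Tenascin C, a hexameric glycoprotein that loosens adhesion to fibronectin, showed the largest difference between the arms of the abundant genes. In DMSO, Tnc stood at 8838 and 8234 normalized reads at 24 h, then 47272 and 62302 at 48 h, then 71214 and 81698 at 72 h, then 53693 and 55818 at 96 h and 34913 and 30358 at 7 d. With JNKi it stood at 11339 and 8803 at 24 h, then 44608 and 49067 at 48 h, then 47401 and 46326 at 72 h, then 36153 and 32690 at 96 h and 10345 and 10163 at 7 d. The arms overlapped at 24 h and 48 h and were apart from 72 h on, and the 2 JNKi libraries at 7 d lay inside the range of the JNKi libraries at 24 h.

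The rise of Tnc to 96 h passed the test in both arms, by 2.68 on the log2 scale in DMSO (adjusted p = 2.416e-10) and by 1.78 with JNKi (adjusted p = 2.187e-08). At 7 d it remained 3.82-fold above 24 h in DMSO (log2 1.93, SE 0.13, adjusted p = 9.606e-09). With JNKi the change from 24 h was 0.04 (95% interval -0.25 to 0.32, adjusted p = 0.8262). Tnc was 3.18-fold lower with JNKi than with DMSO at 7 d (log2 difference -1.67, SE 0.13, adjusted p = 7.695e-06). Among 13896 genes tested at 7 d, 22 had a lower value. At 72 h its difference of -0.70 missed the threshold (adjusted p = 0.07064) and was past it with TMM rescaling (adjusted p = 0.04992), robust variances (0.04491), edgeR (0.04726) and DESeq2 (7.337e-05). At 96 h its difference was -0.67 (adjusted p = 0.1938), which DESeq2 called (adjusted p = 0.0007967).

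Fibulin 2, which binds fibronectin, fibrillin and basement membrane proteins, followed a later course. In DMSO, Fbln2 stood at 62349 and 57546 normalized reads at 24 h, then 122025 and 117727 at 48 h, then 151228 and 163650 at 72 h, then 244184 and 252107 at 96 h and 164798 and 124140 at 7 d. With JNKi it stood at 59731 and 56479 at 24 h, then 109732 and 98999 at 48 h, then 116966 and 135000 at 72 h, then 190048 and 199361 at 96 h and 80850 and 83100 at 7 d. Both arms were highest at 96 h, and the JNKi libraries lay below both DMSO libraries from 48 h on. Fbln2 rose from 24 h to 96 h 4.14-fold in DMSO and 3.35-fold with JNKi. At 7 d it was still above 24 h in both arms (log2 1.26, adjusted p = 1.251e-06 in DMSO; log2 0.50, adjusted p = 0.005432 with JNKi). At 7 d it was 1.76-fold lower with JNKi than with DMSO (log2 difference -0.80, SE 0.14, adjusted p = 0.00176).

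Thrombospondin 1, which can activate latent TGF-β, was highest at 72 h. In DMSO, Thbs1 stood at 32961 and 37330 normalized reads at 24 h, then 78838 and 112947 at 48 h, then 124186 and 119643 at 72 h, then 65591 and 66099 at 96 h and 65077 and 62404 at 7 d. With JNKi it stood at 40804 and 43675 at 24 h, then 75772 and 100477 at 48 h, then 114302 and 109200 at 72 h, then 52764 and 45978 at 96 h and 49992 and 53159 at 7 d. The JNKi libraries were above both DMSO libraries at 24 h and below both from 72 h on. None of the 5 differences passed the test in the main limma fit. At 7 d the difference was -0.31 with a 95% interval of -0.63 to 0.02 (adjusted p = 0.2174). With a replicate block within each time, limma called the Thbs1 differences at 96 h (adjusted p = 0.04324) and 7 d (0.0204), although the replicate numbers are no stated pairing. Thbs1 was higher at 7 d than at 24 h in DMSO (log2 0.86, adjusted p = 0.0001711). With JNKi the change was 0.29 (95% interval -0.04 to 0.61, adjusted p = 0.1193), which passed with upper quartile rescaling (0.37, adjusted p = 0.04239).

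Sparc, a collagen-binding glycoprotein, was the abundant gene with a low point at 96 h. In DMSO, Sparc stood at 14746 and 13372 normalized reads at 24 h, then 20755 and 21369 at 48 h, then 20092 and 17214 at 72 h, then 9357 and 7036 at 96 h and 22411 and 27346 at 7 d. With JNKi it stood at 15965 and 15060 at 24 h, then 21103 and 20670 at 48 h, then 17900 and 15330 at 72 h, then 8332 and 7399 at 96 h and 15062 and 16386 at 7 d. The arms overlapped at 48 h, 72 h and 96 h, the JNKi libraries were above both DMSO libraries at 24 h, and at 7 d both were below. Sparc fell from 24 h to 96 h by 0.79 in DMSO and by 0.98 with JNKi, and it rose from 96 h to 7 d 3.04-fold in DMSO (adjusted p = 6.234e-07) and 2.00-fold with JNKi (adjusted p = 3.186e-05). At 7 d it was 1.58-fold lower with JNKi (log2 difference -0.66, SE 0.13, adjusted p = 0.004986). Without the first and shallowest JNKi library at 7 d that difference was -0.60 and not called (adjusted p = 0.06526).

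Osteopontin, an integrin-binding phosphoprotein of epithelial secretions and of bone, was the one abundant gene lower at 7 d than at 24 h. In DMSO, Spp1 stood at 65515 and 70392 normalized reads at 24 h, then 42869 and 45278 at 48 h, then 39737 and 34039 at 72 h, then 63267 and 34236 at 96 h and 25010 and 24680 at 7 d. With JNKi it stood at 64005 and 69340 at 24 h, then 47979 and 37457 at 48 h, then 40137 and 30835 at 72 h, then 44216 and 37356 at 96 h and 19501 and 18823 at 7 d. The arms overlapped at the 4 earlier times and were apart at 7 d, and the 2 DMSO libraries at 96 h were the least alike. Spp1 fell from 24 h to 7 d by 1.45 in DMSO (SE 0.20, adjusted p = 1.785e-05) and by 1.80 with JNKi (adjusted p = 2.586e-06). The arms' difference at 7 d was -0.37 (95% interval -0.81 to 0.06, adjusted p = 0.2561). The fall to 96 h in DMSO (by 0.55, adjusted p = 0.02843) lost its call in 8 of 32 alternatives. These were no filter on low values (adjusted p = 0.05189), upper quartile rescaling (-0.47, 0.05627), limma without the trend (0.05747), DESeq2 (-0.48, 0.07038) and the compared libraries alone (0.08712). It was also lost without the second DMSO library at 96 h (-0.10, adjusted p = 0.6346) or without either DMSO library at 24 h (-0.60, adjusted p = 0.05721; -0.49, adjusted p = 0.1179). With JNKi the fall to 96 h (by 0.71, adjusted p = 0.006597) lost its call without the second JNKi library at 96 h (-0.59, adjusted p = 0.06574). So did the DMSO change from 96 h to 7 d (-0.91, adjusted p = 0.002914) without the first DMSO library at 96 h (-0.46, adjusted p = 0.05544).

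The 4 genes with few reads were near 0 until 96 h. Periostin, a ligand of integrins that is made by mesenchymal cells, had 90 reads in the DMSO group at 7 d against 1 at 24 h, and 80 against 2 with JNKi. In DMSO the libraries held 0 and 1.4 normalized reads of Postn at 24 h, then 2.3 and 0 at 48 h, then 2.5 and 1.8 at 72 h, then 5.4 and 3.5 at 96 h and 42.1 and 43.9 at 7 d. With JNKi they held 1.1 and 1.6 at 24 h, then 1.7 and 0 at 48 h, then 1.6 and 2.4 at 72 h, then 7.6 and 4.8 at 96 h and 49.9 and 43.4 at 7 d. Ratios of pooled reads were scaled between libraries as the normalized reads are. Between 7 d and 24 h the ratio was 61.0 in DMSO (95% interval 10.7 to 2435) and 33.9 with JNKi (9.08 to 284.5). JNKi against DMSO at 7 d gave 1.03 (0.753 to 1.41). All intervals of these ratios are exact and cover counting error only. Thbs2, a second thrombospondin with no read in either arm at 24 h or 48 h, had 15.1 and 6.8 normalized reads in DMSO and 27.7 and 21 with JNKi at 7 d. Against the floor of 3 reads per group, Thbs2 was at least 4.29-fold higher at 7 d than at 24 h in DMSO and at least 11.3-fold higher with JNKi. JNKi against DMSO at 7 d gave 2.44 (1.38 to 4.46) for Thbs2 by counting, and the limma difference of 1.17 (95% interval -0.20 to 2.53) did not pass (adjusted p = 0.2637).

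Fbln5, an elastic fibre protein, had 23 reads and Tgfbi, an adhesion protein named for its induction by TGF-β, 30 reads over all 20 libraries, and neither was tested. Fbln5 had 9 reads with JNKi at 7 d, or 0.195 RPM (95% interval of counting 0.0893 to 0.371), and 1 with JNKi at 24 h (up to 0.125 RPM). In DMSO it had 4 reads at 7 d, or 0.0695 RPM (0.0189 to 0.178), and 0 at 24 h (up to 0.0885 RPM). The intervals of these groups overlap except for DMSO at 24 h against JNKi at 7 d. The 9 reads with JNKi at 7 d were 1 in one library and 8 in the other. Reads of genes not normally expressed in epithelium also rose late: 523 olfactory and vomeronasal receptor genes with a mean under 10 in every group, a set chosen after their values were seen, summed to 1.25 RPM in DMSO at 24 h and 7.54 at 7 d (6.04-fold). With JNKi it was 1.42 and 14.7 (10.4-fold). At 7 d that sum was 1.95-fold higher with JNKi than with DMSO. The part of this late low-level signal in the values of Postn, Thbs2 and Fbln5 was not tested.

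**Figure D2:**
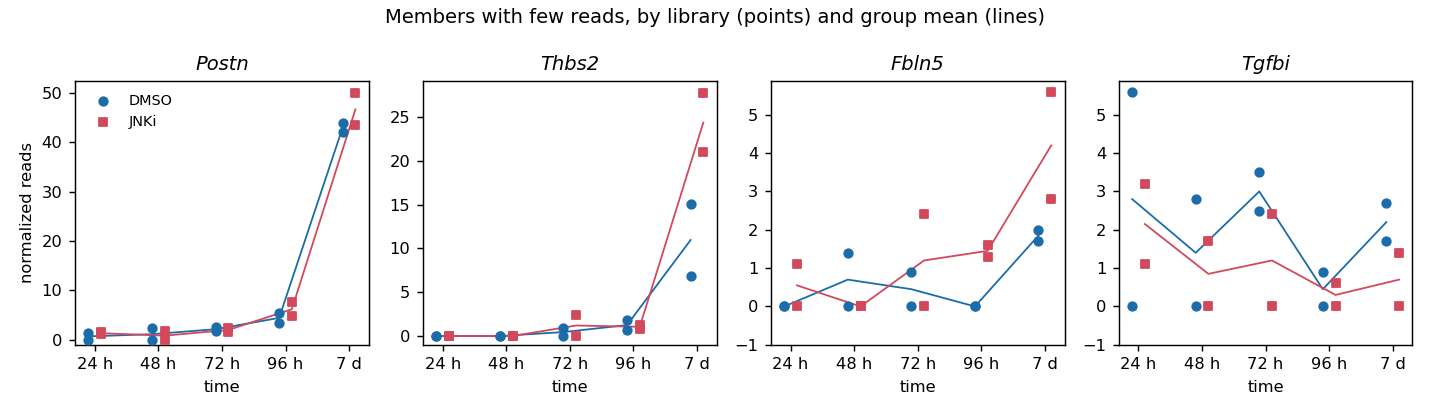
Normalized reads of the 4 genes with few reads at 5 times, drawn at equal spacing and each on its own linear scale; points are libraries (circles DMSO, squares JNKi) and lines join the means of 2. Postn reaches 42.1 to 49.9 and Thbs2 6.8 to 27.7 at 7 d, while no library of Fbln5 or Tgfbi passes 5.6.

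Taking the members by role, those that were lower with JNKi at 7 d were the fibre former Fn1, its modulator Tnc, the fibre-associated Fbln2 and the collagen binder Sparc. These 4 of the 10 genes, of 8 tested, passed the test in the lower direction, against 5.33% of all 13896 genes. None of the 8 passed in the higher direction, against 4.84% of all genes, and 10.2% of all genes passed in either direction. The 4 are among the 6 abundant genes, whose median log2 difference was -0.73 beside 0.02 for all genes. In the main limma fit none of the 8 and 0% of all genes passed at 24 h and 48 h, none and 0.072% (0.0288% lower) at 72 h, and none and 0.0072% at 96 h. At an unadjusted p under 0.05, 610, 521, 1125 and 677 of all genes passed at 24 h, 48 h, 72 h and 96 h, of which 0, 0, 3 and 4 were among the 8. With edgeR and with DESeq2 1 of the 8, Tnc, was called at 72 h and none at 24 h or 48 h. At 96 h edgeR called none and DESeq2 2, Fn1 and Tnc. The shares above are those of the main limma fit. Over all alternatives the calls among all genes ranged from 0 to 334 at 72 h and from 0 to 99 at 96 h. The count at 7 d rested on few libraries: of all genes 1414 passed, but 378 without the first DMSO library, 367 without the first JNKi library and 589 without the second. Of the 8 genes, 3 or 4 did without any one library. The mean of the 5 differences passed for Tnc (-0.61, adjusted p = 4.424e-05), Fn1 (-0.49, adjusted p = 0.002492) and Fbln2 (-0.34, adjusted p = 0.004532), where 2.32% of all genes passed in that direction and 2.45% in the other. That mean was past the test in 663 of all genes, and in 393 and 403 without the first or second JNKi library at 96 h and 409 and 415 without the first or second at 7 d.

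**Figure D3:**
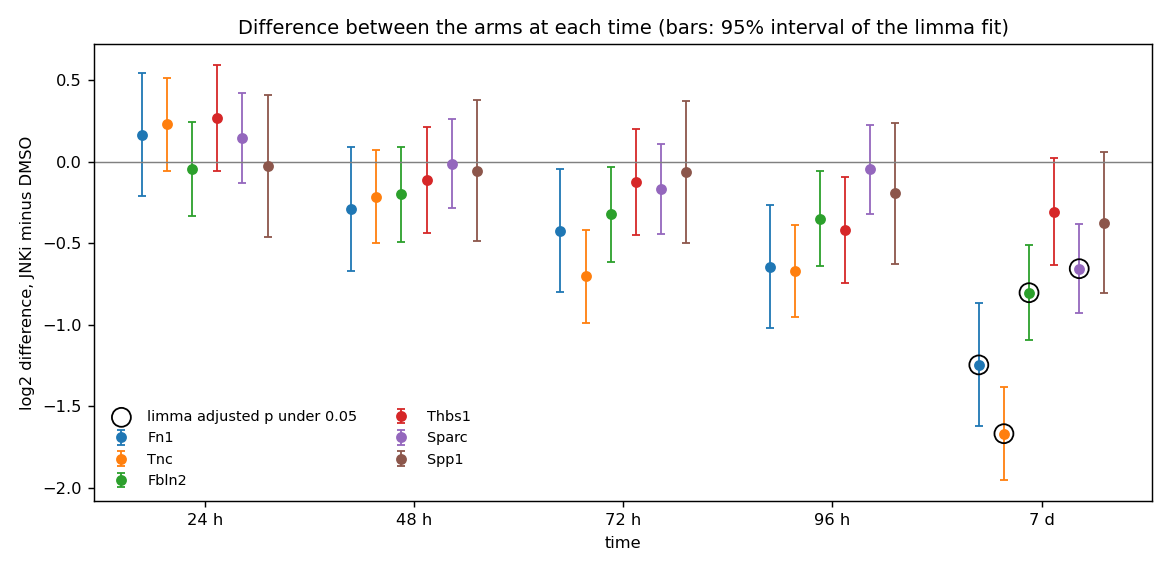
Log2 difference, JNKi minus DMSO, of the 6 abundant genes at each time, with bars for the 95% interval of the limma fit and rings where the adjusted p is under 0.05. The ringed points are Fn1 (-1.25), Tnc (-1.67), Fbln2 (-0.80) and Sparc (-0.66) at 7 d.

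**Figure D4:**
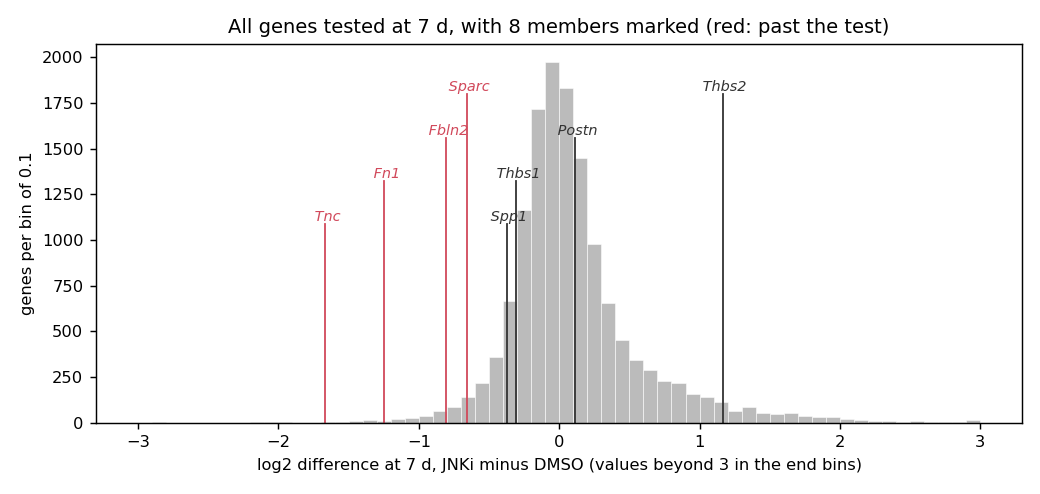
Histogram of the log2 difference at 7 d, JNKi minus DMSO, for 13896 genes in bins of 0.1, with vertical lines at the 8 tested genes, red where the adjusted p is under 0.05; line heights only separate the names. Tnc lies at -1.67 and Fn1 at -1.25, below the bulk of genes, and Thbs2 at 1.17.

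The difference between the 7 d and the 24 h effect of JNKi was itself tested as an interaction. It passed for Tnc (-1.89, SE 0.19, adjusted p = 0.0001371), Fn1 (-1.41, SE 0.25, adjusted p = 0.007987) and Sparc (-0.80, SE 0.18, adjusted p = 0.03299), against 1.3% of all genes in that direction, 0.799% in the other and 2.1% in either. It was -0.76 for Fbln2 (adjusted p = 0.05253) and -0.57 for Thbs1 (adjusted p = 0.187). The Fbln2 interaction gained a call in 11 of 33 alternatives, among them TMM rescaling (adjusted p = 0.03569), robust variances (0.02212), edgeR (0.02699) and DESeq2 (0.0002503). That of Thbs1 gained one with a replicate block within each time (adjusted p = 0.008659). The Fn1 interaction lost its call with the compared libraries alone (adjusted p = 0.05196) and without the second DMSO library at 24 h (adjusted p = 0.05796), the first JNKi library at 24 h (0.05519) or the first JNKi library at 7 d (0.06669). Among all genes 292 passed, but 86, 90 and 59 without these libraries, 115 without the first DMSO library at 7 d, 557 without the second and 121 without the second JNKi library at 7 d. The Sparc interaction lost it in 8 of 33 alternatives, with limma without the trend (adjusted p = 0.08542), with the compared libraries alone (0.06348) and without any one of 6 libraries: the second DMSO library at 24 h (adjusted p = 0.1355) or at 7 d (0.07186), the first and second JNKi libraries at 24 h (0.1139 and 0.05228) and the first and second at 7 d (0.1478 and 0.06933). Between 7 d and 96 h none of the 8 genes passed in the main limma fit, beside 0.0792% of all genes (0.0432% lower, 0.036% higher). The nearest was Tnc (-0.9955, adjusted p = 0.0549). At an unadjusted p under 0.05, 4 of the 8 and 1548 of all 13896 genes passed. With edgeR and with DESeq2 1 of the 8 was called. Over all alternatives the calls among all genes for this difference ranged from 0 to 719.

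Within the arms most genes changed with time, so member counts are read beside a high background. In DMSO, 5 of the 6 abundant genes were higher and 1, Spp1, lower at 7 d than at 24 h, with 59.9% of all genes past the test (32% higher, 28% lower). With JNKi 2 were higher (Fn1 and Fbln2) and 1 lower (Spp1), with 58% of all genes past it (31.7% higher, 26.3% lower). From 24 h to 96 h, 4 were higher and 2, Sparc and Spp1, lower in DMSO, where 63.3% of all genes passed (32.7% higher, 30.5% lower). They numbered 3 and 2 with JNKi, where 59.8% passed (30.8% higher, 29% lower). From 96 h to 7 d, 1 was higher (Sparc) and 4 lower (Fn1, Tnc, Fbln2 and Spp1) in each arm, where 36.5% of all genes passed in DMSO (21% higher, 15.5% lower) and 39.7% with JNKi (23.2% higher, 16.6% lower). Postn and Thbs2 are left out of these counts, because they entered the test only through the 7 d groups in which they were high. The 5071 genes behind that share in DMSO were 3076 without the second library at 96 h and 2652 without the second at 7 d. The 5521 with JNKi were 3340 without the second library at 96 h. The Postn calls at 96 h rested on few reads. In DMSO the call was lost with DESeq2 (adjusted p = 0.1403) and without the first library at 24 h (adjusted p = 0.1765) or at 96 h (0.1011). With JNKi it was lost with pseudocount 0.5 (adjusted p = 0.06736), with DESeq2 (0.1042) and without either library at 24 h (0.1212 and 0.07184) or at 96 h (0.169 and 0.05436). The Thbs2 call in DMSO from 96 h to 7 d (log2 2.36, adjusted p = 0.009482) was lost with DESeq2 (3.17, adjusted p = 0.08841) and without the first library at 96 h (2.00, adjusted p = 0.07571) or at 7 d (1.84, adjusted p = 0.08378).

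**Figure D5:**
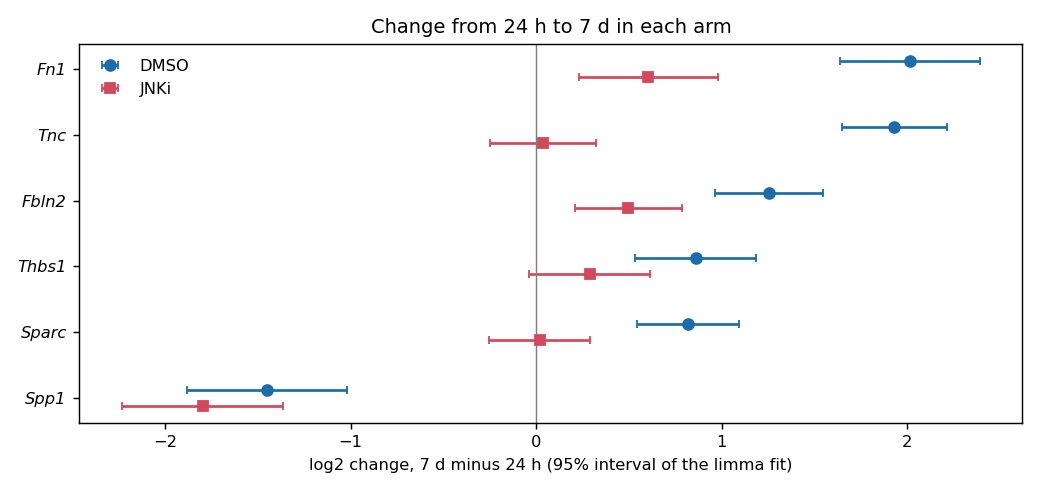
Log2 change from 24 h to 7 d of the 6 abundant genes in DMSO (circles) and JNKi (squares), with bars for the 95% interval of the limma fit. Tnc changes by 1.93 in DMSO and 0.04 with JNKi, Sparc by 0.82 and 0.02, and Spp1 falls in both.

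Per kilobase of exon, which allows levels to be set between genes, the order of the abundant genes changed with time. In DMSO at 24 h Spp1 led with 41230 normalized reads per kb, ahead of Fbln2 (9411), Thbs1 (5787), Fn1 (4123), Sparc (3711) and Tnc (1098). At 96 h Fbln2 (38960) and Fn1 (38840) led Spp1 (29580), Thbs1 (10840), Tnc (7045) and Sparc (2164). At 7 d the order in DMSO was Fbln2 (22680), Fn1 (16700), Spp1 (15080), Thbs1 (10500), Sparc (6568) and Tnc (4199). With JNKi it was Fbln2 (12870), Spp1 (11630), Thbs1 (8493), Fn1 (7002), Sparc (4151) and Tnc (1319). By group means at 7 d, Fn1 thus stood above Spp1 and Thbs1 in DMSO and below both with JNKi. In the second DMSO library at 7 d, however, Fn1 lay slightly below Spp1 per kb. Exon lengths are from GENCODE on GRCm38, a later build than the authors', and the order was not tested. All 10 genes together took 0.76 to 0.818% of reads in DMSO at 24 h, 2.91 to 3.21% at 96 h and 1.59 to 1.89% at 7 d, and 0.96 to 1.05% with JNKi at 7 d.

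With the 10 groups of each gene ranked by mean, neighbours whose libraries did not overlap were 6 of 9 for Fn1 and Thbs1, 5 for Fbln2, 4 for Tnc and Sparc and 3 for Spp1. For Fn1 the overlapping neighbours were JNKi at 72 h, DMSO at 48 h and JNKi at 96 h, and the 2 groups at 24 h. For Tnc they included JNKi at 7 d, JNKi at 24 h and DMSO at 24 h, the 3 lowest groups.

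Across the 20 libraries, on the log2 scale, Fn1 and Tnc had a Pearson correlation of 0.967, Fn1 and Fbln2 of 0.908 and Tnc and Thbs1 of 0.848, whereas Sparc and Spp1 stayed between -0.395 and 0.386 with every other abundant gene. Among 11593 genes, those closest to Fn1 were Actn1, an actin cross-linker (0.986), Stk38l (0.979) and Mast4 (0.977). Those closest to Tnc were Il11, a cytokine (0.9751), Slc44a2 (0.970) and Myh9, non-muscle myosin heavy chain (0.968). Closest to Fbln2 were Adpgk (0.986), Nomo1 (0.9747) and Uggt1 (0.971). Closest to Thbs1 were Plod2, a collagen lysyl hydroxylase (0.965), Lpin3 (0.954) and 9830001H06Rik (0.951). Closest to Sparc were 9530068E07Rik (0.971), Selm (0.968) and Tmem43 (0.959). Closest to Spp1 were Oxsr1 (0.965), Epb4.1 (0.961) and Vill (0.944). These libraries share 2 arms and 5 times, so the correlations are descriptions. At 7 d Il11 differed between the arms by -1.19 on the log2 scale, beside -1.67 for Tnc, and Actn1 by -0.48, beside -1.25 for Fn1.

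Other genes of the same families changed in both directions with time. Of 20 listed relatives (fibulins, tenascins, thrombospondins and Sparc-like proteins), 8 had a mean of at least 10 normalized reads over all groups. Of these 8, 5 rose and 2 fell in DMSO from 24 h to 7 d, where 32% of all genes rose and 28% fell. Fbln1 fell from 355.4 ± 49.99 normalized reads to 59.4 ± 22.1 (SD, n = 2, as for all such values; log2 -2.60, adjusted p = 1.05e-06). Hmcn1, a large fibulin-like matrix protein, fell from 373 ± 30.8 to 205 ± 14.4 (-0.86, adjusted p = 0.02768). The abundant Thbs3 went from 1850 ± 140 to 3988 ± 18.3 (log2 1.11, adjusted p = 1.074e-06) and Ecm1 from 3977 ± 530 to 5095 ± 57.2 (0.36, adjusted p = 0.02406). A further 5 relatives with lower means entered the test through their late groups, so that their calls are no support for a rise. Among them Smoc2, Tnr and Spock2 came from means of 0.7, 0 and 0 to 18.05, 12.45 and 8.10, where the low-level signal described above also lies. Efemp2, a fibulin of elastic fibres, was the single one of 13 tested relatives to pass between the arms at 7 d (10.2% of all genes did), at 122 ± 34.2 in DMSO and 61.3 ± 0.424 with JNKi (-0.96, adjusted p = 0.00878).

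Receptors of these proteins changed in both directions. Of 17 tested, 14 had a mean of at least 10 normalized reads over all groups. Of these 14, 7 rose and 3 fell in DMSO from 24 h to 7 d, where 32% of all genes rose and 28% fell. With JNKi at 7 d 2 of the 17 were lower and none higher, where 5.33% and 4.84% of all genes were (median -0.01 beside 0.02). Itgb1, the integrin chain of the main fibronectin receptor, rose from 37340 ± 29.6 to 89570 ± 9176 normalized reads (log2 1.26, adjusted p = 4.591e-08) and was 57340 ± 1785 with JNKi (-0.64, adjusted p = 0.001012). Sdc1, syndecan 1, a heparan sulphate proteoglycan, fell from 19160 ± 1105 to 11280 ± 154 (-0.76, adjusted p = 5.951e-05) and was 7682 ± 327 with JNKi (-0.55, adjusted p = 0.009303). Itga3, with 25310 ± 2443 in DMSO and 30630 ± 3311 with JNKi at 7 d, did not pass (0.27, adjusted p = 0.1442). Stab1, a scavenger receptor that takes up Sparc, rose from 28.4 ± 1.49 to 297 ± 34.2 in DMSO, and Cd36 and Ptprz1 came from 1.4 and 0.7 to 20.4 and 9.25. Both of these entered the test through their late groups, and the part of the late low-level signal in them was not tested.

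Partners of fibre assembly and adhesion gave the most calls between the arms of the 5 pathway lists. Of 19 tested, 17 rose and none fell in DMSO from 24 h to 7 d (32% of all genes rose, 28% fell). Among the 16 with a mean of at least 10 over all groups, 14 rose. The other 3 entered the test only through their 7 d groups, so that their calls are no support for a rise. With JNKi at 7 d 10 were lower and none higher (5.33% and 4.84% of all genes; median -0.39 beside 0.02). Those lower were Col5a1, Ltbp1, Ltbp3, Tgm2, Tgfb1, Tns1, Ilk, Fermt2, Tln1 and Vcl, which encode a fibrillar collagen, latent TGF-β binding proteins, a transglutaminase that cross-links fibronectin, the TGF-β ligand and proteins of integrin adhesions. Col5a1 rose from 68.4 ± 3.18 to 661 ± 31.1 normalized reads in DMSO and was 326 ± 6.22 with JNKi at 7 d (-1.02, adjusted p = 0.0007093). Tgm2 rose from 8716 ± 446 to 24630 ± 1642 and was 13860 ± 84.7 with JNKi (-0.83, adjusted p = 0.0002046). Tns1, tensin 1, rose from 2977 ± 157 to 10570 ± 1163 and was 6700 ± 112 with JNKi (-0.65, adjusted p = 0.001972). Ltbp2 rose from 12.1 ± 4.88 to 620 ± 31.5 and Bmp1, a procollagen proteinase, from 7599 ± 421 to 18130 ± 1522. Neither passed between the arms (-0.39, adjusted p = 0.3192; -0.20, adjusted p = 0.2624).

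TGF-β target genes of other kinds and genes of the JNK and AP-1 pathway changed in both directions. Of 20 TGF-β targets tested, 11 rose and 3 fell in DMSO from 24 h to 7 d (32% and 28% of all genes). With JNKi at 7 d 3 were lower and 1 higher (5.33% and 4.84% of all genes). Ctgf, itself a matricellular protein, lay at 152900 ± 30740 in DMSO and 74650 ± 3247 with JNKi at 7 d (-1.02, adjusted p = 0.0006412). Cdkn1a, a cell cycle inhibitor, was the one that was higher, at 5427 ± 1336 and 7795 ± 158 (0.54, adjusted p = 0.01359). Of 16 JNK and AP-1 genes tested, 5 rose and 3 fell in DMSO from 24 h to 7 d (32% and 28% of all genes). Jun (-0.57, adjusted p = 0.02723) and Atf3 (-1.50, adjusted p = 0.02615), subunits of AP-1 dimers, were the 2 that were lower with JNKi at 7 d. Fos, at 180 ± 4.10 and 210 ± 1.49, did not pass (0.22, adjusted p = 0.8936).

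Of the marker genes, 6 of 8 epithelial ones tested fell and 1, Epcam, rose in DMSO from 24 h to 7 d. Epcam has a low mean and entered the test only through a 7 d group, so its call is no support for a rise. Over that time 32% of all genes rose and 28% fell in DMSO, and 31.7% and 26.3% with JNKi. Krt18 was lower with JNKi at 7 d, at 75020 ± 11120 and 45160 ± 1571 (-0.72, adjusted p = 0.002945). There 5.33% of all genes were lower and 4.84% higher. Of 4 fibroblast markers tested, none differed between the arms at 7 d, where 10.2% of all genes did. Col1a1 lay at 1564 ± 102 and 1574 ± 104. From 24 h to 7 d 2 of the 4 rose in DMSO and 3 with JNKi. Among the 3 of them with a mean of at least 10 over all groups, 2 rose in each arm. Of 7 macrophage and leukocyte markers 5 rose over that time in DMSO and 6 with JNKi, and 1, Cd14, fell in both arms. Among the 5 of them with a mean of at least 10 over all groups, 3 rose in DMSO and 4 with JNKi. Of 6 endothelial markers 4 rose in DMSO and 5 with JNKi, none fell in DMSO and 1 with JNKi. Among the 3 of them with such a mean, 2 rose in each arm. The macrophage and endothelial markers with lower means, and Lyz2, entered the test through their late groups. Their calls are therefore no support for a rise. In DMSO Csf1r went from 466 to 839, Lyz2 from 7.80 to 38.1, Cdh5 from 73.1 to 288 and Vwf from 2.80 to 77.5. The part of these rises in the results of the 10 genes was not tested. Between the arms at 7 d Cd14 was the one of the 7 that passed, higher with JNKi (0.67, adjusted p = 0.0233), and of the 6 Flt1 was lower (-0.49, adjusted p = 0.02082). Of the 2 adipocyte markers tested 1 fell with time in each arm, and neither passed between the arms. The endothelial list summed to 471 to 545 normalized reads in DMSO at 24 h, 756 to 837 at 7 d and 840 to 858 with JNKi at 7 d, with Cldn5 at 0 in DMSO. The 6 adipocyte markers summed to 41.8 to 49.2, 27.2 to 30.2 and 45.5 to 63.8.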

How the data were processed

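RNA of NMuMG cells was sequenced in 35 samples, of which the 20 of the inhibitor experiment were analysed. The 15 samples of a TGF-β time course were not, because decimal points split the values of their table into separate cells (95.7% of 11405 genes that reach 100 jump between small and large values). Alignment and counting used TopHat, HTSeq, DESeq and build mm9, without versions, per the submitters' processing notes. What the authors deposited is a signal, the normalized reads of each gene. Neither the filter on genes nor the use of strand is given in the sources used here. Overlapping, antisense or near-identical genes are therefore uncertain. Dividing by the value of 1 read recovered whole reads for 100% of values (within 0.1), which gave the depth.

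The log2 of the deposited value plus 1, which understates changes of low genes, was fitted in R 4.3.3 by limma 3.58.1, using its intensity trend and one mean per group, for the 13896 genes whose mean reached 10 in some group. P-values are two-sided. Benjamini-Hochberg adjustment covered all of these genes, and an adjusted p under 0.05 was called. The fit was tested on simulated data, where false calls exceeded the nominal share among genes with few reads. edgeR 4.0.16 and DESeq2 1.42.0 on recovered reads, other scalings, pseudocounts and filters, a replicate block and leaving out each library were alternatives. Named genes were all 10 members, the 3 nearest genes of each member with a group mean of at least 50, and from each list the up to 3 largest changes past the test in DMSO from 24 h to 7 d and between arms at 7 d plus the 2 most abundant; the others named were chosen after their values were seen. Members and lists were chosen with earlier results of these data known, and the split into abundant and low genes and the choice of printed promoters were made after seeing values. One gene that the rule names is not reported here. Replicate numbers were not taken as pairs.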

Additional observations from a re-analysis of the deposited data

Results flagged for a closer look

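For 3 genes the effect of JNKi differed between times by a test of that difference, the interaction of arm with time between 24 h and 7 d. Tnc had the largest, -1.89 on the log2 scale (limma adjusted p = 0.0001371): its arms differed by 0.23 at 24 h and by -1.67 at 7 d. For Fn1 the interaction was -1.41 (adjusted p = 0.007987), from 0.16 to -1.25. For Sparc it was -0.8 (adjusted p = 0.03299), from 0.14 to -0.66. No group has more than 2 libraries, so no library was tested as an outlier within its group.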

How the results depend on the processing

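Over 3591 single-gene results under alternatives, 3507 stayed on their side of the threshold, 37 lost a call and 47 gained one. No difference past the threshold in either setting changed sign. In 31 cases over 19 results a difference that passed in neither did, such as Tnc with JNKi at 7 d against 24 h (0.04, and -0.02 with TMM rescaling). Of the 8 genes tested, the number past the test was 3 in place of 5 for JNKi at 7 d against 24 h with a group mean of at least 50, a filter that leaves out the low genes. For JNKi against DMSO at 72 h it was 1 in place of 0 with TMM rescaling, robust variances, edgeR, DESeq2 and a replicate block within each time. At 96 h it was 2 with DESeq2 and 3 with that block, in place of 0. For the mean of 5 times it was 5 with the block in place of 3. For the JNKi effect at 7 d against 24 h it was 5 with the block and 1 with the comparison's own libraries only, in place of 3. For 7 d against 96 h it was 1 with pseudocount 8, a group mean of at least 50, TMM rescaling, robust variances, edgeR, DESeq2 and own libraries, and 2 with the block, in place of 0. The cause was not tested. Leaving out each library in turn gave 0 to 1 at 72 h, 1 to 4 for the effect at 7 d against 24 h and 0 to 1 for 7 d against 96 h. It gave 3 to 4 for JNKi against DMSO at 7 d, where other settings gave up to 6 in place of 4: Thbs2 was added with pseudocount 8 (adjusted p = 0.02317), Spp1 with own libraries (0.04748) and the block (0.04023), and Thbs1 with the block (0.0204). At 96 h the genes added by the block were Fn1 (0.04462), Tnc (0.006932) and Thbs1 (0.04324). The replicate numbers are no stated pairing: replicate differences of the arms correlated at 0.726, 0.591, 0.723 and 0.527 at 24 h to 96 h and at 0.072 at 7 d over 9605 genes. Over all 13896 genes, calls at 7 d numbered 1414, 367 without the first JNKi library at 7 d and 3522 with the block. Calls for the mean of 5 times numbered 663 and ranged from 393 to 2198, and for the effect at 7 d against 24 h 292, from 59 to 1741. At 72 h they numbered 10 (0 to 334), at 96 h 1 (0 to 99), at 24 h 0 (0 to 19) and at 48 h 0 (0 to 15). Calls of DMSO at 7 d against 96 h numbered 5071 (2652 to 5555) and of JNKi 5521 (3340 to 7381). Upper quartile rescaling moved the median of all genes from 0.06 to 0.13 for DMSO at 7 d against 24 h and to 0.15 for JNKi. Fbln5 and Tgfbi were too low to enter the test.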
